A study of Mus musculus with 13 samples.

Results

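The 39 genes described here act at the G1/S transition and in DNA replication. They were chosen by name, as genes whose products license origins, form and fire the replicative helicase, copy DNA, supply nucleotides, package new DNA or push the cell from G1 into S phase. Earlier results of these data were known when the genes were chosen. Each is represented by the brightest probe that carries its symbol alone, and all 39 were among the 16322 genes bright enough to be tested. The study followed mouse back skin through 2 days and nights. The tested tissue was full-thickness dorsal skin of male C57Bl6 mice, 30 days old, with hair follicles in anagen, the growing phase of the hair cycle. The mice ate standard chow freely in days of 12 h light, each followed by 12 h dark. There were 13 pools, 6 on the second day (ZT26 to ZT46), 6 on the first day (ZT2 to ZT22) and 1 at ZT50, where ZT is hours after the first lights-on. Each pool held RNA of 3 mice, was hybridised to 1 array, and was a separate set of animals. By lighting, 6 pools were dark (time of day 14, 18 and 22 h) and 7 were light (2, 6 and 10 h). All pools shared genotype, strain, sex and age, so time is the only difference between them that the labels give.

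In G1 phase the origin recognition complex, with CDC6 and CDT1, loads the MCM2-7 ring onto DNA. At S phase entry CDC45 and the GINS complex join the ring and make it an active helicase, behind which polymerases, the PCNA clamp and its loader copy both strands. D- and E-type cyclins release E2F factors, which switch on most of these genes. In anagen skin the cells in S phase lie mainly in the hair matrix and in the basal layers of the epidermis and outer root sheath, so the transcripts of whole skin sum over these places.

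Promoter sequence was at hand for 33 of the 39 genes, as windows from 250 bases before to 50 after each annotated start in RefSeq (GRCm38.p6). The letters TTTCCCGC, TTTCGCGC, TTTGCCGC and TTTGGCGC, the usual core of an E2F site, were searched on both strands. At least 1 window held a match in 13 of the 33 genes (39.4%), against 506 of the 12847 tested genes with a window (3.94%). The 13 were Mcm3, Mcm5, Mcm6, Mcm7, Cdt1, Cdc6, Orc1, Rfc3, Pola1, Pold1, Pole2, Uhrf1 and Lig1. Matches may overlap when the letters read on both strands, and a match is a string of letters, not a measured site. The sequences that follow are those of the MCM subunits Mcm5, Mcm6 and Mcm7, of Uhrf1, and a short stretch of Cdt1. Mcm5, Cdt1 and Uhrf1 are shown because they had 3 of the 4 lowest slopes over time, Mcm6 for its several matches, and Mcm7 for its closeness to the mean of the other genes. Capitals mark the E2F letters, and each sequence reads 5′ to 3′ toward the gene, from 250 bases before its start, except Cdt1.
Mcm5, chr8:75109259-75109508, plus strand: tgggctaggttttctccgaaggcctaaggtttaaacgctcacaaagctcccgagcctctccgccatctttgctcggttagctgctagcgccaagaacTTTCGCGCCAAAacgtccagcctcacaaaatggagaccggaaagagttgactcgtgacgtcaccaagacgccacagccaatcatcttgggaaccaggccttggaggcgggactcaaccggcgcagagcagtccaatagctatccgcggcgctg
Mcm6, chr1:128359706-128359955, minus strand: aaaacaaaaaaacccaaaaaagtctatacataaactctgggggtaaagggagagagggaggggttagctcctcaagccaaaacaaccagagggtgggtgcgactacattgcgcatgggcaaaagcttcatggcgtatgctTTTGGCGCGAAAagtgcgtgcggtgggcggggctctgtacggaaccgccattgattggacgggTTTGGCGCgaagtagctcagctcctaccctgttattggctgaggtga
Mcm7, chr5:138171884-138172133, minus strand: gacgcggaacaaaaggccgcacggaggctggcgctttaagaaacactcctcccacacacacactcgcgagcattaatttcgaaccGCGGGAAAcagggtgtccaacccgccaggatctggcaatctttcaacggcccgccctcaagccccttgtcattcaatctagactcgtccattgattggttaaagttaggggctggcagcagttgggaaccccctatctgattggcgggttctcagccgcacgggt
Uhrf1, chr17:56304063-56304312, plus strand: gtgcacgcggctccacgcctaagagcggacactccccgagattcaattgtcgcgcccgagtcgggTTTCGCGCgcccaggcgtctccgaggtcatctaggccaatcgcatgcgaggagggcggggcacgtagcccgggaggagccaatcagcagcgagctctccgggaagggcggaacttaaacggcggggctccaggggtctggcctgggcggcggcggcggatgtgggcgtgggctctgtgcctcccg
Cdt1, chr8:122568037-122568064, plus strand: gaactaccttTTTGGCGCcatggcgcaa

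The capitals of Mcm5 are 2 matches that share bases, one on each strand, starting at -153 and -149 from the start. Mcm6 shows the same kind of overlapping pair at -110 and -106 and a further match at -47. The Mcm7 match shown lies at -165, the Uhrf1 match at -185 and the Cdt1 match at 33 bases past the start. Other motifs were closer to their share over all promoters. CCAAT on either strand was found in 18 of 33 genes (54.5%, against 41.4% of all), the E-box CACGTG in 5 (15.2%, against 10.6%) and TTTGAA, the core of the CHR element of G2/M genes, in 3 (9.09%, against 15.2%).

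Array medians lay between 440.0 and 483.2, and intensities are on the scale deposited by the authors. Tissue markers were present throughout: all 8 listed basal epidermis genes, 9 of 11 of differentiated epidermis, 11 of 11 of hair matrix and 15 of 18 hair keratins were bright enough to be tested. The summed level of 16 skeletal muscle genes differed 2.06-fold between the lowest and the highest pool. The sum over 10 hepatocyte genes differed 5.65-fold and was highest at ZT46. In whole tissue, fewer cells of a type and less RNA per cell cannot be told apart. Of the 39 genes, 36 were above the median level of all probes, the dimmest was Orc1 at the 25.9th percentile, and the median residual SD was 0.0952 log2, against 0.106 over all genes tested.

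Whether these genes follow the day was asked with a 24 h wave plus linear time, fitted to each gene on log2(intensity + 16) in limma. None of the 39 passed a Benjamini-Hochberg adjusted p of 0.05, while 0.141% of all genes did, and none was under an unadjusted p of 0.05, against 9.54% of all. The fitted peak-to-trough folds ran from 1.01 to 1.16 with a median of 1.05, against 1.09 over all genes. The upper 95% limits of these folds ran from 1.097 to 1.32, so a wave of 1.5-fold lay above the limit for all 39. That was also so for 15236 of the 16322 genes tested, so it is not particular to the 39. The same 13 pools showed the skin clock: 7 of 17 core clock genes passed, and Nr1d1 and Dbp, a repressor and an output factor of the clock, had waves of 5.66-fold and 5.85-fold. The tops of the small fitted waves fell in the dark for 25 of the 39 genes (64.1%, against 54.2% of all genes) and in the light for 14. The fullest stretch was 16 to 20 h, with 15 genes (38.5%, against 26.4% of all). In that stretch the SE of the fitted top ran from 2.05 h (Cdc45) to 9.16 h (Chaf1b). Outside it, the SE was 19.6 h for Gins1, so the times of many tops are only loosely set.

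**Figure D1:**
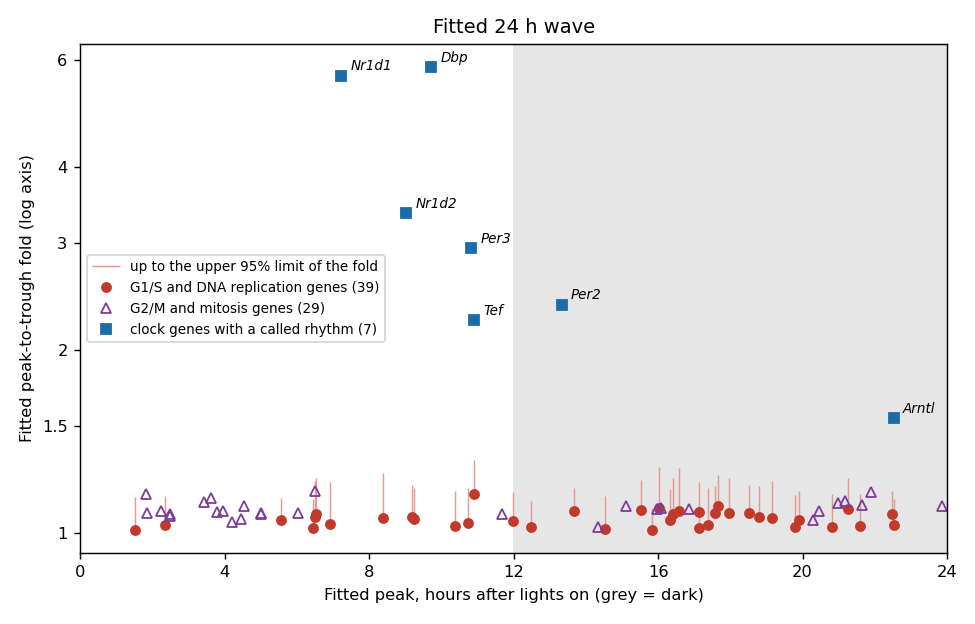
Fitted 24 h waves: time of day of the top in hours against peak-to-trough fold for the 39 genes, with lines up to the upper 95% limit, beside 29 G2/M genes and the 7 clock genes that passed, on a log axis. The 39 genes lie between 1.01 and 1.16-fold, while Nr1d1 and Dbp lie above 5-fold.

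Slow change over the 48 h was read from the linear term of the same fit, in log2 per 24 h, called slope here. None of the 39 slopes passed at an adjusted p of 0.05 (limma, Benjamini-Hochberg over all genes), and 0 of the 16322 genes did (0%). At an unadjusted p of 0.05 there were 9, all lower with time, against 8.8% of all genes in either direction and 5.59% lower. Slopes below 0 were found for 35 of 39 (89.7%), against 56.5% of all genes. The median slope was -0.05, against -0.01 over all genes, and the range was -0.20 (Cdt1) to 0.04 (Fen1). The 4 genes above 0 were Fen1, Gins1, Ccne2 and Dut. Every second-day pool lay below every first-day pool for 2 genes, Mcm5 and Cdt1, while 0.276% of all genes showed this. Set hour by hour, 5 genes were lower on the second day at 6 of 6 times of day, against 2.14% of all genes. They were Mcm2, Mcm5, Cdt1, Orc1 and Rfc5. Another 9 were lower at 5 of 6, for which the share of all genes was not counted.

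Slopes of the tissue markers lay on both sides of 0, and none passed at an adjusted p of 0.05 (limma). They were below 0 for 7 of 8 basal epidermis genes (median -0.06), 8 of 9 of differentiated epidermis (-0.05), 11 of 11 of hair matrix (-0.05), 10 of 15 hair keratins (-0.03) and 7 of 7 of mast cells (-0.03). They were above 0 for 16 of 16 skeletal muscle genes (median 0.27) and 8 of 8 of endothelium (0.04). At an unadjusted p of 0.05 there were 2 basal epidermis, 1 differentiated epidermis, 2 hair matrix, 2 hair keratin, 0 mast cell, 7 muscle and 1 endothelial genes. The summed level of the 8 basal epidermis genes was 43625 to 45955 on the second day and 45683 to 48549 on the first. With the mean of these markers in the fit, an alternative chosen after seeing the data, the median slope was -0.01. In that fit 23 of 39 slopes were below 0 (against 51.4% of all genes) and 3 genes were under an unadjusted p of 0.05 (against 4.74%). Without the ZT14 and ZT38 pools the median slope was -0.03, with 30 below 0 (against 55.7%) and 5 under 0.05 (8.08%). Without ZT14 alone it was -0.03 as well, with 32 below 0 (against 56.3%) and 7 under 0.05 (8.61%). With the hair keratin mean in the fit the median slope was -0.08, with 38 below 0 (against 56.2%) and 12 under 0.05 (8.23%). With the skeletal muscle mean it was -0.05, with 33 below 0 (against 52.7%) and 5 under 0.05 (4.33%). Without ZT46, the pool with the high hepatocyte sum, 8 were under 0.05 (against 8.31%) and the median slope was -0.05. As reported, 8.8% of all genes were under 0.05. The part of these markers in the result was not tested beyond those fits.

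**Figure D2:**
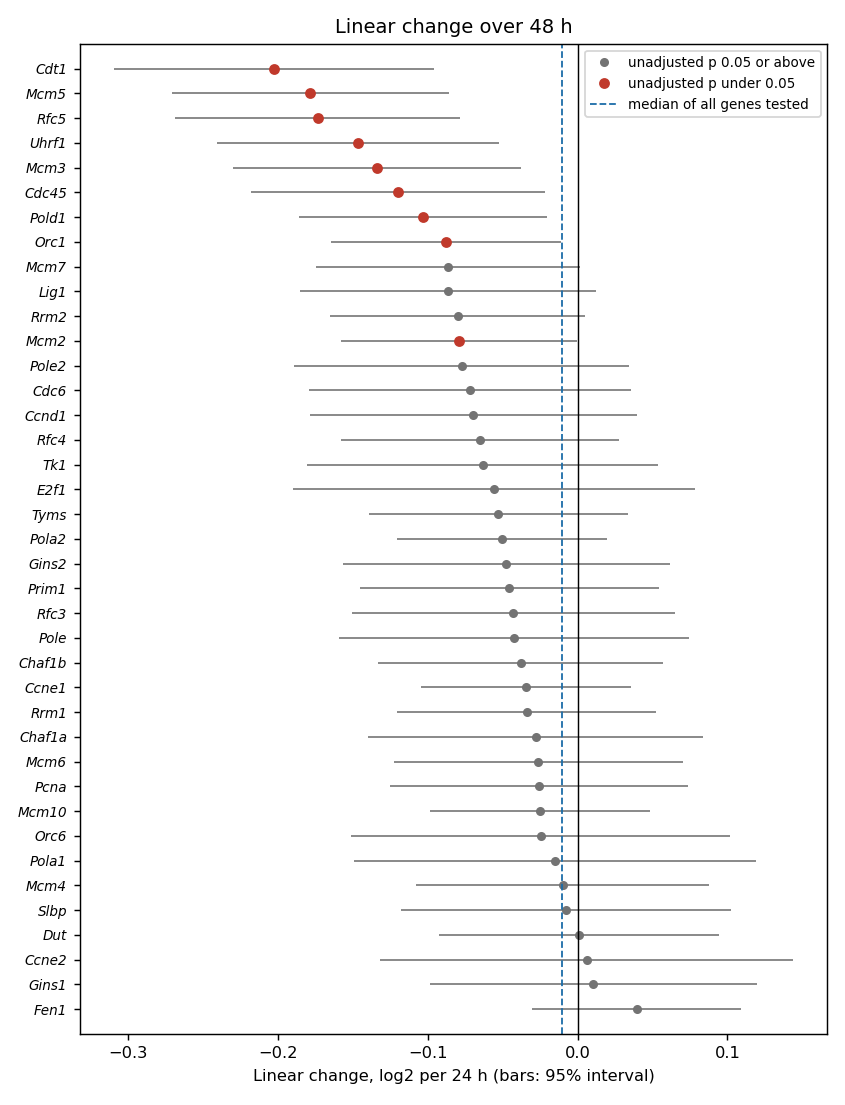
Linear change in log2 per 24 h for each of the 39 genes, with 95% intervals, ordered by slope. The values run from -0.20 for Cdt1 to 0.04 for Fen1, and 35 lie below 0.

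The MCM2-7 subunits form the ring of the replicative helicase, and all 6 slopes were below 0. Mcm5 intensity was 1704, 1809, 1856, 1694, 1783 and 1797 at ZT26 to ZT46 on the second day, against 2089, 2083, 2062, 2206, 2222 and 1939 at ZT2 to ZT22 on the first day, and 1788 at ZT50. Its highest second-day pool, ZT34, lay below its lowest first-day pool, ZT22, and ZT50 was also below. The Mcm5 mean was 1774 ± 63.2 on the second day and 2099.9 ± 104 on the first (SD, n = 6 each). Mcm5 slope was -0.18 ± 0.04 log2 per 24 h (SE; limma, unadjusted p = 0.0010, Benjamini-Hochberg adjusted p = 0.306). Mcm3 intensity was 722, 701, 736, 606, 664 and 687 at ZT26 to ZT46 on the second day, against 786, 759, 729.6, 839, 779.7 and 721 at ZT2 to ZT22 on the first day, and 691 at ZT50. Mcm3 was highest at ZT14 and lowest at ZT38, and the days overlapped through ZT22 and the ZT26 and ZT34 pools. The Mcm3 mean was 686 ± 46.6 on the second day and 769 ± 43.0 on the first (SD, n = 6 each). Mcm3 slope was -0.13 ± 0.04 log2 per 24 h (SE; limma, unadjusted p = 0.0097, Benjamini-Hochberg adjusted p = 0.419). Mcm2 intensity was 1501, 1544, 1456, 1385, 1378 and 1424 at ZT26 to ZT46 on the second day, against 1509, 1553, 1480, 1529, 1661 and 1547 at ZT2 to ZT22 on the first day, and 1443 at ZT50. Mcm2 had its highest pool at ZT18 and its lowest at ZT42, with overlapping days. The Mcm2 mean was 1448 ± 65.5 on the second day and 1546 ± 62.3 on the first (SD, n = 6 each). Mcm2 slope was -0.08 ± 0.04 log2 per 24 h (SE; limma, unadjusted p = 0.0488, Benjamini-Hochberg adjusted p = 0.563). Mcm6 intensity was 1637, 1642, 1634, 1463, 1477 and 1623 at ZT26 to ZT46 on the second day, against 1478, 1557, 1682, 1816, 1650 and 1585 at ZT2 to ZT22 on the first day, and 1547 at ZT50. The days overlapped for Mcm6, with ZT14 the highest pool and ZT38 the lowest. Mcm6 slope was -0.03 ± 0.04 log2 per 24 h (SE; limma adjusted p = 0.898). Mcm4 ranged over 1398 to 1807 with a slope of -0.01, and Mcm7 over 1590 to 2077 with a slope of -0.09. Both had ZT14 as their highest pool.

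The 4 licensing genes Orc1, Orc6, Cdc6 and Cdt1 load the ring, and their slopes were all below 0. Cdt1 intensity was 692, 607, 715, 696, 736 and 686 at ZT26 to ZT46 on the second day, against 855, 902, 798, 859, 754 and 778 at ZT2 to ZT22 on the first day, and 686 at ZT50. For Cdt1, which brings MCM2-7 to origins and is destroyed in S phase, the days did not overlap, and ZT42, the highest pool of the second day, was below ZT18, the lowest of the first. The Cdt1 mean was 689 ± 44.0 on the second day and 824 ± 56.5 on the first (SD, n = 6 each). Cdt1 slope was -0.20 ± 0.05 log2 per 24 h (SE; limma, unadjusted p = 0.0012, Benjamini-Hochberg adjusted p = 0.322). Orc1 intensity was 177, 174, 191, 189, 166 and 180.1 at ZT26 to ZT46 on the second day, against 186, 193, 200.5, 213, 191 and 192 at ZT2 to ZT22 on the first day, and 170.3 at ZT50. Orc1, the largest origin recognition subunit, was highest at ZT14 and lowest at ZT42, and the ZT34 and ZT38 pools reached into the first-day range. The Orc1 mean was 179.7 ± 9.24 on the second day and 196 ± 9.60 on the first (SD, n = 6 each). Orc1 slope was -0.09 ± 0.04 log2 per 24 h (SE; limma, unadjusted p = 0.0279, Benjamini-Hochberg adjusted p = 0.509). Orc1 had a fitted wave of 1.09-fold with its top at 13.7 h and an upper 95% limit of 1.18 (limma, unadjusted p = 0.156, adjusted p = 0.617). Cdc6, the loading ATPase, ranged over 295 to 401 (slope -0.07), and Orc6, a further origin subunit, over 995 to 1326 (slope -0.02).

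Cdc45, Gins1, Gins2 and Mcm10 turn the loaded ring into a moving helicase. Cdc45 intensity was 929, 894, 1067, 964, 951 and 1057 at ZT26 to ZT46 on the second day, against 1069, 1094, 980.3, 1115, 1072 and 1069 at ZT2 to ZT22 on the first day, and 874 at ZT50. Cdc45 was highest at ZT14, and its 3 lowest pools were ZT50, ZT30 and ZT26. The Cdc45 mean was 977 ± 70.3 on the second day and 1067 ± 45.9 on the first (SD, n = 6 each). Cdc45 slope was -0.12 ± 0.05 log2 per 24 h (SE; limma, unadjusted p = 0.0202, Benjamini-Hochberg adjusted p = 0.488). Cdc45 had a fitted wave of 1.11-fold with its top at 17.7 h and an upper 95% limit of 1.25 (limma, unadjusted p = 0.233, adjusted p = 0.676). The GINS subunits Gins1 and Gins2 ranged over 252 to 328 (slope 0.01) and 700.3 to 892 (slope -0.05). Mcm10, which helps CDC45 and GINS to engage, ranged over 786 to 892 (slope -0.03), with ZT14 highest and ZT38 lowest.

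**Figure D3:**
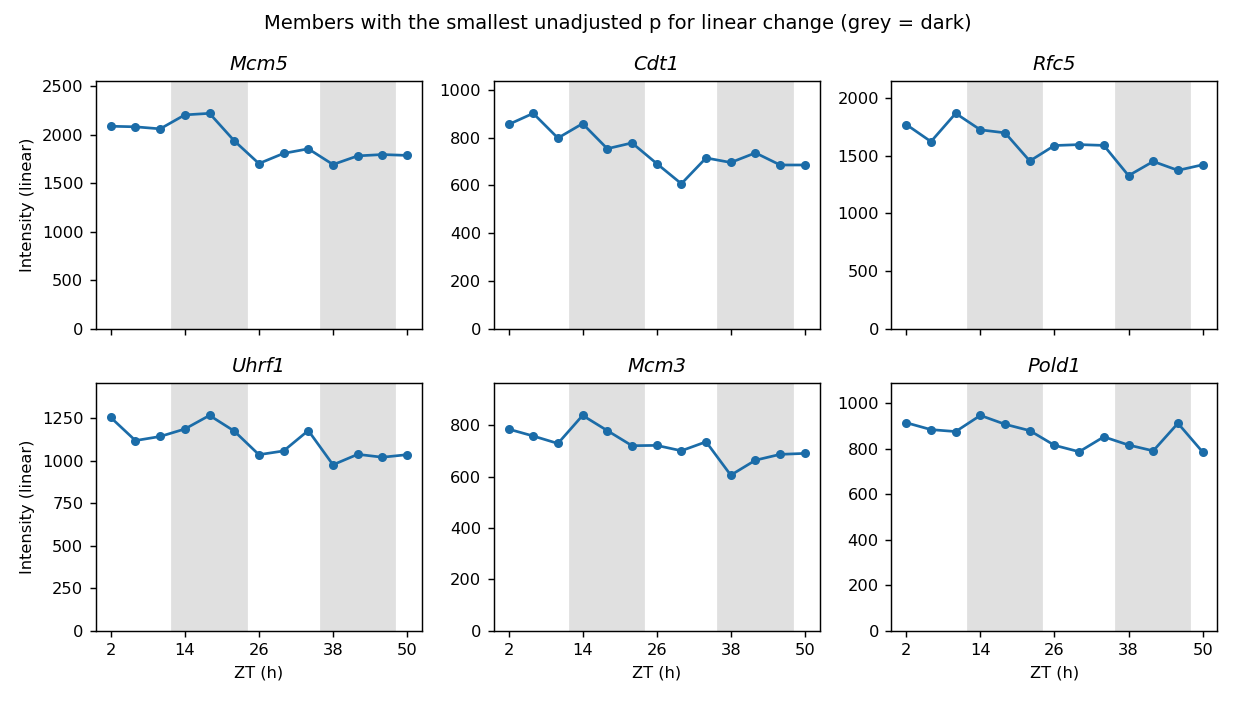
Intensity (linear scale, from 0) of the 6 genes with the smallest p for linear change, 1 point per pool by ZT in hours, with dark in grey. For Mcm5 and Cdt1 no second-day pool reaches the lowest first-day pool.

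The polymerase genes are Pola1, Pola2, Pold1, Pole, Pole2 and Prim1, and all 6 slopes were below 0. They encode some of the subunits of DNA polymerases alpha, delta and epsilon and of the primase. Pold1 intensity was 816, 788, 853, 817, 791 and 913 at ZT26 to ZT46 on the second day, against 915, 885, 876, 947, 908 and 880.3 at ZT2 to ZT22 on the first day, and 786 at ZT50. For Pold1, the catalytic subunit of polymerase delta, ZT46 was the single second-day pool within the first-day range, and ZT50 was the lowest of all. The Pold1 mean was 829.6 ± 47.0 on the second day and 902 ± 27.2 on the first (SD, n = 6 each). Pold1 slope was -0.10 ± 0.04 log2 per 24 h (SE; limma, unadjusted p = 0.0181, Benjamini-Hochberg adjusted p = 0.472). Pola1 intensity was 491, 532, 509, 478, 495 and 529 at ZT26 to ZT46 on the second day, against 408, 548, 498, 589.9, 572 and 573 at ZT2 to ZT22 on the first day, and 489 at ZT50. Pola1, the catalytic subunit of polymerase alpha, stood lowest at ZT2 and highest at ZT14. Pola1 slope was -0.02 ± 0.06 log2 per 24 h (SE; limma adjusted p = 0.965). Pole2 intensity was 761, 832, 733, 657, 739 and 816 at ZT26 to ZT46 on the second day, against 753, 736, 782, 864, 802 and 790.5 at ZT2 to ZT22 on the first day, and 669.6 at ZT50. Pole2, a subunit of polymerase epsilon, had ZT14 highest and ZT38 lowest. Pole2 slope was -0.08 ± 0.05 log2 per 24 h (SE; limma adjusted p = 0.689). Pola2 ranged over 1089 to 1267 (slope -0.05), Pole over 965 to 1326 (slope -0.04) and the primase gene Prim1 over 641 to 803 (slope -0.05).

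PCNA is the ring that holds polymerases on DNA, and the RFC proteins load it. Pcna intensity was 5171, 4976, 4789, 4746, 4961 and 5146 at ZT26 to ZT46 on the second day, against 4784, 5277, 4790, 5812, 4675 and 5259 at ZT2 to ZT22 on the first day, and 4922 at ZT50. All second-day Pcna pools lay inside the first-day range, which ran between ZT18 and ZT14. Pcna slope was -0.03 ± 0.05 log2 per 24 h (SE; limma adjusted p = 0.902). Rfc5 intensity was 1588, 1596, 1589, 1327, 1450 and 1373 at ZT26 to ZT46 on the second day, against 1770, 1622, 1867, 1724, 1698 and 1454 at ZT2 to ZT22 on the first day, and 1421 at ZT50. Rfc5 was highest at ZT10 and lowest at ZT38, and ZT26, ZT30 and ZT34 exceeded ZT22, the lowest first-day pool. The Rfc5 mean was 1487 ± 120.5 on the second day and 1689 ± 141 on the first (SD, n = 6 each). Rfc5 slope was -0.17 ± 0.04 log2 per 24 h (SE; limma, unadjusted p = 0.0016, Benjamini-Hochberg adjusted p = 0.325). Rfc3 intensity was 529.8, 527, 576, 507, 543 and 560.4 at ZT26 to ZT46 on the second day, against 511, 599, 664, 630.5, 531 and 481 at ZT2 to ZT22 on the first day, and 514 at ZT50. Rfc3 was highest at ZT10 and ZT14, and its second-day pools lay inside the first-day range. Rfc3 had a fitted wave of 1.16-fold with its top at 10.9 h and an upper 95% limit of 1.32 (limma, unadjusted p = 0.0821, adjusted p = 0.554). Its unadjusted p was the smallest of the 39 for the 24 h wave. Rfc4, another loader subunit, ranged over 1081 to 1328 (slope -0.07). Lig1, which seals Okazaki fragments, ranged over 731 to 949.8 (slope -0.09), and Fen1, which trims their flaps, over 463 to 519 (slope 0.04). Fen1 was highest at ZT38, where 16 of the other genes were lowest.

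Nucleotide supply was represented by Rrm1 and Rrm2, the ribonucleotide reductase subunits, by Tyms and Tk1, which make thymidylate, and by Dut, which removes dUTP. Dut intensity was 665, 594, 722, 660.4, 662 and 711 at ZT26 to ZT46 on the second day, against 705, 641, 627, 664, 658 and 758 at ZT2 to ZT22 on the first day, and 684 at ZT50. Dut was highest at ZT22 and lowest at ZT30. Dut had a fitted wave of 1.096-fold with its top at 21.3 h and an upper 95% limit of 1.23 (limma, unadjusted p = 0.276, adjusted p = 0.705). Dut slope was 0.00 ± 0.04 log2 per 24 h (SE; limma adjusted p = 0.998). Rrm1 ranged over 2210 to 2697 (slope -0.03), Rrm2 over 1724 to 2135 (slope -0.08), Tyms over 1206 to 1471 (slope -0.05) and Tk1 over 1187 to 1597 (slope -0.06). Rrm2 and Tyms were both highest at ZT14 and lowest at ZT38, and Rrm1 was highest at ZT18.

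Among the chromatin genes, Uhrf1 passes DNA methylation to the new strand, Chaf1a and Chaf1b place histones on it, and Slbp is needed for histone mRNA. Uhrf1 intensity was 1036, 1058, 1178, 976, 1038 and 1021 at ZT26 to ZT46 on the second day, against 1255, 1119, 1143, 1187, 1267 and 1175 at ZT2 to ZT22 on the first day, and 1036 at ZT50. Uhrf1 was highest at ZT18 and lowest at ZT38, and ZT34 was the single second-day pool within the first-day range. The Uhrf1 mean was 1051 ± 67.7 on the second day and 1191 ± 59.4 on the first (SD, n = 6 each). Uhrf1 slope was -0.15 ± 0.04 log2 per 24 h (SE; limma, unadjusted p = 0.0049, Benjamini-Hochberg adjusted p = 0.365). Chaf1a ranged over 489.9 to 628 (slope -0.03), Chaf1b over 832 to 1017 (slope -0.04) and Slbp over 638 to 844 (slope -0.01).

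The genes of G1/S control, the cyclins Ccnd1, Ccne1 and Ccne2 and the factor E2f1, had no common highest or lowest pool. Ccnd1 intensity was 5174, 5180, 6303, 5216, 5484 and 6078 at ZT26 to ZT46 on the second day, against 6072, 6341, 6128, 6041, 5502 and 5843 at ZT2 to ZT22 on the first day, and 5467 at ZT50. Ccnd1, the D-type cyclin that answers growth signals, was highest at ZT6 and lowest at ZT26, and the days overlapped. Ccnd1 slope was -0.07 ± 0.05 log2 per 24 h (SE; limma adjusted p = 0.717). E2f1 intensity was 888, 815, 812, 742, 641 and 715 at ZT26 to ZT46 on the second day, against 720.4, 726, 798, 866, 737 and 859 at ZT2 to ZT22 on the first day, and 693 at ZT50. E2f1, an activator of the S phase genes, was highest at ZT26 and lowest at ZT42. E2f1 slope was -0.06 ± 0.06 log2 per 24 h (SE; limma adjusted p = 0.827). Ccne1 intensity was 879, 854, 852, 833, 857 and 906 at ZT26 to ZT46 on the second day, against 912, 911, 806, 865, 923 and 871 at ZT2 to ZT22 on the first day, and 859 at ZT50. Ccne1, the partner of CDK2 at S phase entry, held its second-day pools inside the first-day range. Ccne1 had a fitted wave of 1.08-fold with its top at 22.5 h and an upper 95% limit of 1.17 (limma, unadjusted p = 0.224, adjusted p = 0.67). Ccne2 ranged over 705 to 1011 (slope 0.01).

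The dark and light pools were compared with linear time in the fit. None of the 39 genes passed at an adjusted p of 0.05 (limma), against 0.00613% of all genes, and 1 was under an unadjusted p of 0.05, against 12.4% of all. Of the differences, 27 were above 0 and 12 below, with a median of 0.01 log2, against 0.01 over all genes, and a range of -0.07 to 0.13. The 1 gene was Cdc45, with 1038 ± 65.7 in dark pools (SD, n = 6) and 987 ± 90.9 in light pools (SD, n = 7). Its difference was 0.11 ± 0.05 log2 (SE; limma adjusted p = 0.401). Next came Pold1 with 876 ± 60.2 in dark pools and 846 ± 50.2 in light pools, a difference of 0.08 ± 0.04 log2 (limma adjusted p = 0.444). Pola1 had 539 ± 46.2 in dark pools and 497 ± 44.9 in light pools, a difference of 0.13 ± 0.07 log2 (limma adjusted p = 0.454). Dark and light pools overlapped for all 3 genes.

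Whether the wave of the first day returned on the second was asked by letting the wave differ between the days over 12 pools, with amplitude as the height of the wave above its middle. None of the 39 genes passed at an adjusted p of 0.05 (limma), against 2.93% of all genes, and 4 were under an unadjusted p of 0.05, against 26.6% of all. The 4 were Rfc3, Mcm6, Pole2 and E2f1. The fitted amplitude of Rfc3 was 0.007 log2 on the second day and 0.231 on the first (limma adjusted p = 0.0826). Mcm6 had an amplitude of 0.090 with the top at 4.07 h on the second day and of 0.126 with the top at 14.0 h on the first (limma adjusted p = 0.0914). Pole2 had 0.123 with the top at 2.15 h on the second day and 0.091 with the top at 15.7 h on the first (limma adjusted p = 0.144). The count of all genes called, 478, depended on the setting: it was 0 under quantile normalization, under median centring and with no filter, 1197 with the hair keratin mean and 1596 with the skeletal muscle mean in the fit, and 0 to 1582 with each pool left out in turn, the highest without ZT42. The count of the 39 genes was 0 under each of these.

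The pools at time of day 14 h stood farthest apart. ZT14 was the highest of the 13 pools for 17 of the 39 genes (43.6%), against 9.26% of all genes. ZT38 was the lowest for 16 (41.0%), against 9.19% of all. Both were true of 7 genes, for which the share of all genes was not counted. Compared with ZT14, 38 of 39 genes were lower at ZT38 (97.4%, against 53.8% of all genes). The median difference was -0.24 log2, against -0.01 over all. The exception was Fen1 at 0.14. Other hours were less one-sided. On the second day 25 genes were lower at 2 h (64.1%, against 50.8% of all genes; median -0.03) and 30 at 6 h (76.9%, against 55.7%; median -0.08). At 10 h 12 were lower (30.8%, against 45.0%; median 0.04), and at 18 h 30 (76.9%, against 56.3%; median -0.11). At 22 h the 21 lower genes (53.8%; median -0.02) were near the share of all genes, 50.7%. The mean profile of the 39 genes, each centred on its own mean, was 0.13 log2 at ZT14 and -0.11 at ZT38, which set its whole range at 1.18-fold. The count of 38 was 37 under quantile normalization and 38 under median centring.

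**Figure D4:**
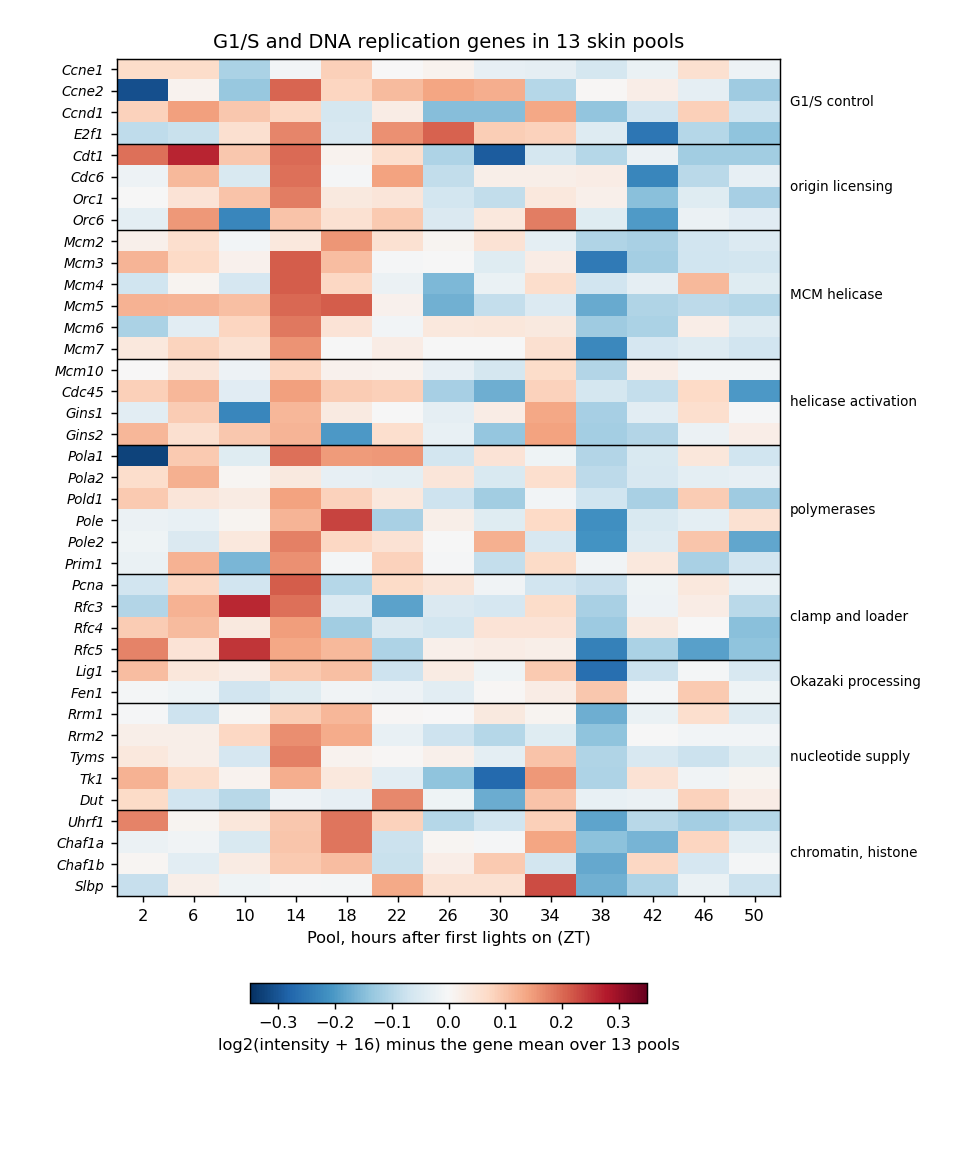
Centred log2 intensity of the 39 genes, ordered by role, in each of the 13 pools by ZT in hours. The ZT14 column is the highest and the ZT38 column the lowest for many genes, with Fen1 against the trend.

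Covariation of the genes is described here by Pearson's r over the 13 pools. Within each pool, all genes share the same array, scaling and mice. Over the 741 pairs of the 39 genes the median r was 0.38 and 88.5% were above 0, against a median of 0.01 and 50.7% over pairs of all genes. With linear time taken out it was 0.31, with 82.9% above 0. Without ZT14 and ZT38 it was 0.21 over 11 pools, with 71.0% above 0. Pairs with the highest r were Mcm3 and Mcm7 (0.91), Cdc45 and Pold1 (0.90), Mcm3 and Lig1 (0.89) and Mcm5 and Rrm2 (0.87). The lowest was Rfc5 and Fen1 at -0.73. Against the mean of the other genes, 29 had an r over 0.5, led by Mcm3 (0.91), Mcm7 (0.90) and Tyms (0.85), and Fen1 alone was below 0, at -0.46. Without ZT14 and ZT38, 16 were over 0.5 and 4 below 0. By role, the median r within a group was 0.58 for the MCM subunits, 0.53 for licensing, 0.50 for helicase activation, 0.50 for the clamp and loader, 0.46 for nucleotide supply, 0.37 for chromatin, 0.34 for polymerases and 0.00 for G1/S control. Lig1 and Fen1, the pair of Okazaki processing, had an r of -0.52.

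Genes with an E2F match in a promoter window had a median r to the other genes of 0.71 and a median slope of -0.09, with 13 of 13 slopes below 0 and 6 under an unadjusted p of 0.05. Those with a window and no match, 20 in number, had a median r of 0.56 and a median slope of -0.04, with 18 below 0 and 3 under 0.05. These are values of groups chosen on sequence and no test was made of them.

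The marker lists were set beside the 39 genes. The mean profile of the 8 basal epidermis genes had an r of 0.90 to that of the 39 genes over 13 pools, and 0.81 without ZT14 and ZT38. It stood at 0.10 log2 at ZT14 and -0.08 at ZT38. For differentiated epidermis the r was 0.81, and 0.76 without these 2 pools. For hair matrix it was 0.26, and 0.56 without them, but -0.16 after linear time was taken out. For skeletal muscle it was -0.29, and -0.54 without them. The 15 hair keratins had an r of -0.20, and of -0.73 after linear time was taken out. They were at -0.13 at ZT14 and 0.08 at ZT38, but without these 2 pools their r was 0.58. Core clock genes had an r of 0.27, and 0.49 without these 2 pools, but 0.04 after linear time was taken out. Of the remaining lists, sebaceous and mast cell genes had an r of 0.55, fibroblast and adipocyte genes 0.45, and T and NK cell genes 0.40. Without ZT14 and ZT38 these were 0.31, 0.28, -0.04, 0.61 and 0.37. The sebaceous, mast cell and fibroblast profiles were highest at ZT14 too. The r was 0.19 for myeloid cells, 0.18 for endothelium, -0.02 for hepatocytes, -0.03 for melanocytes and -0.21 for erythroid cells. Without ZT14 and ZT38 it was -0.16 for myeloid cells and -0.26 for endothelium, and both profiles were lowest at ZT38. After linear time was taken out, the r was 0.22 for myeloid cells and 0.62 for endothelium. It was then 0.85 for basal epidermis, 0.69 for differentiated epidermis, 0.56 for mast cell, 0.55 for fibroblast, 0.51 for sebaceous and -0.15 for skeletal muscle genes. The part of any of these cells in the profile of the 39 genes was not tested.

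**Figure D5:**
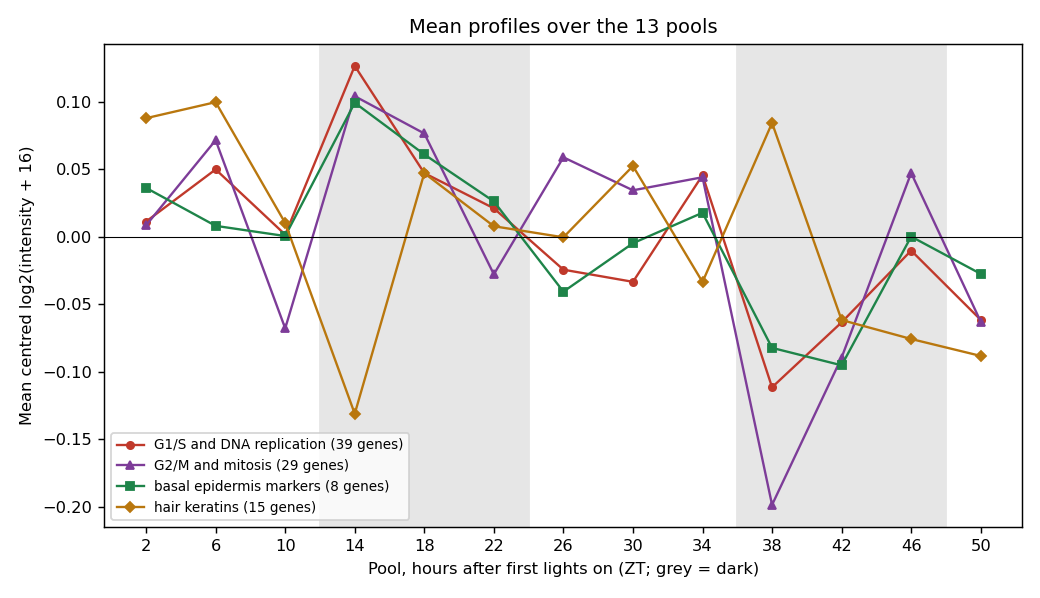
Mean centred log2 profiles by ZT in hours of the 39 genes beside 29 G2/M genes, 8 basal epidermis markers and 15 hair keratins, with dark in grey. The 39 genes stand at 0.13 at ZT14 and at -0.11 at ZT38, and G2/M genes at 0.10 and -0.20. Basal epidermis markers stand at 0.10 and -0.08, and hair keratins at -0.13 and 0.08.

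Further genes of the cell cycle were read in the same way. For 59 tested genes of a list of 60 others for G1/S and replication, the mean profile had an r of 0.87 to that of the 39 genes. None of the 59 passed for drift. At an unadjusted p of 0.05, 6 were lower (10.2%, against 5.59% of all genes). Slopes were below 0 for 42 of 59 (71.2%, against 56.5% of all), with a median of -0.04. The smallest p belonged to Cdk6 (slope -0.18), a D-cyclin partner, then Skp2 (-0.11), part of the ligase that removes p27, and E2f6 (-0.15). For the 24 h wave none passed and 3 were under 0.05 unadjusted (5.08%, against 9.54% of all genes), Pold4, Tfdp2 and Dck. In dark minus light none passed and 3 were under 0.05 unadjusted (5.08%, against 12.4% of all genes). These were Dck at 0.18 log2, Pold4 at -0.18 and Tfdp2 at -0.14. Among 29 tested of 30 G2/M genes, none passed for drift, and 5 were under 0.05 unadjusted and lower (17.2%, against 5.59% of all genes). Of their slopes, 25 were below 0 (86.2%, against 56.5% of all), with a median of -0.06. Their profile had an r of 0.80 to that of the 39 genes, and Cdc20, the activator of the anaphase ligase, had the smallest p with a slope of -0.16. The G2/M profile was also highest at ZT14 (0.10 log2) and lowest at ZT38 (-0.20). So was that of the 59 other G1/S and replication genes (0.07 and -0.08). For the wave none of the G2/M genes passed and 2 were under 0.05 unadjusted (6.90%, against 9.54% of all genes), Aurka and Cdc25b. In dark minus light none passed and 2 were under 0.05 unadjusted (6.90%, against 12.4% of all genes), Cdc25b at -0.15 log2 and Cdc25c at -0.13. An r over 0.5 to the mean profile of the 39 genes was reached by 26 of the 59 (44.1%), by 19 of the 29 (65.5%) and by 13.04% of all genes.

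The 10 genes outside the 39 with the highest r to their mean profile over 13 pools were Lrrc75a (0.92), Mthfd1 (0.91), Dennd1a (0.91), Basp1 (0.91), Pbk (0.90), Atad2 (0.90), Rdh9 (0.90), Exo1 (0.90), Parp1 (0.89) and Irak3 (0.89). Mthfd1 is an enzyme of folate metabolism, Pbk a mitotic kinase, Exo1 a DNA exonuclease and Parp1 a sensor of DNA breaks. The roles of Lrrc75a, Dennd1a, Basp1, Rdh9 and Irak3 are not described here. Of the 10, only Atad2 was on a cell cycle list used here. Second probes were at hand for 3 of the 39 genes. The Pcna pair had an r of 0.997 over the 13 pools. The Tk1 pair had 0.76, with slopes of -0.06 for the brighter and -0.11 for the dimmer probe, and the Slbp pair 0.68, with -0.01 and -0.06.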

How the data were processed

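Whole back skin RNA of 13 time pools was measured on 1-colour Affymetrix whole-transcript arrays. Per probe, the deposited table gives intensity in linear units, judged from its values. Affymetrix Expression Console 1.1.1 and PLIER 2.0 are named, with no role, per the submitters' processing notes. The authors' scaling between arrays and the genome build are not given in the sources used here.

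The deposited intensity was put on the scale log2(value + 16), where folds understate the change of dim genes. Of 35557 probes, 21789 carried 1 symbol, 1621 several, and those without a symbol were not named. Single-symbol probes had to reach a mean of 7.61 log2, the 25th percentile over the whole table, and the brightest per gene was kept, which gave 16322 genes. Models were fitted in limma 3.58.1 (R 4.3.3) across all genes: cosine and sine of 24 h period with linear time (moderated F), the linear term of that fit, dark minus light with linear time, and the interaction of day with the wave over 12 pools. Calls were at a Benjamini-Hochberg adjusted p under 0.05 over all genes. Since no mouse is in more than 1 pool, p-values rest on the spread between pools and not on that between single mice. Precision is limited by having 1 array per time.

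The members, the gene lists and the marker lists were chosen with earlier results of these data known. Given in every pool were the 6 members with the smallest p for linear change, 5 for the wave, 3 for dark minus light, 3 for the wave between days, and Pcna, Mcm2, Ccnd1 and E2f1. Non-members named were the 10 most like the members' mean profile, up to 3 per other cell cycle list and test with the smallest p, and Nr1d1 and Dbp. The fits were repeated with median centring or quantile normalization, with a pseudocount of 1 or 64, with the filter dropped or raised to the 50th percentile, with every probe, with a robust trended prior, with muscle, adipocyte, hair keratin and basal epidermis means as covariates, other forms of the time terms, and leaving out each pool. The code was tested on simulated data. Promoter windows came from RefSeq (GRCm38.p6) and were read for letters only. Plots were made in Python 3.11.15 (matplotlib 3.10.9).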

Additional observations from a re-analysis of the deposited data

Results flagged for a closer look

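In the light pools, Pola1 had a pool far from the others: ZT2 was lowest at 407.7, with the nearest at 488.9, and the gap was 0.611 of the range of the 7 light pools on the log2 scale. Chaf1a had ZT34 highest among the light pools at 607.1, with the nearest at 552.7 and a gap of 0.689 of the range. These were 2 of 78 groups examined, 39 genes in dark and light pools each, and chance marks about 1 in 20 groups this way.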

How the results depend on the processing

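No member passed an adjusted p of 0.05 in any of the 4 tests under any alternative run. The lowest adjusted p for linear change over the alternatives among the named members was 0.167 for Mcm5 with the 50th percentile filter, then 0.175 for Rfc5 with the robust trended prior and 0.176 for Cdt1 with that filter. Counts at an unadjusted p of 0.05 depended on the setting. For linear change (9 members, against 8.8% of all genes) the count was 5 with the skeletal muscle covariate (4.33% of all genes) and 3 with the basal epidermis covariate (4.74%). It was 5 without ZT14 and ZT38 (8.08%), 12 with the hair keratin covariate (8.23%) and 7 to 10 with each pool left out in turn (5.07% to 12.0%). For the 24 h wave (0 members, against 9.54% of all genes) it was 1 with the adipocyte covariate (10.3% of all genes) and the hair keratin covariate (9.23%). It was also 1 without linear time (10.25%) and without ZT14 and ZT38 (5.83%). With each pool left out it was 0 to 1 (7.20% to 12.6%), being 1 without ZT34, ZT38 or ZT46. The 1 member under dark minus light, Cdc45, became 0 with median centring, no filter, the adipocyte, hair keratin or basal epidermis covariate, no linear time, and without ZT14 and ZT38, and the count was 0 to 1 with each pool left out, being 0 without ZT2, ZT10, ZT14, ZT18, ZT22, ZT46 or ZT50. The median fold of the wave was 1.109 with 6 times of day as a factor, which takes the highest over the lowest of 6 means, and 1.048 to 1.072 with each pool left out. The median slope ran from -0.08 (hair keratin covariate) to -0.01 (basal epidermis covariate) over all alternatives, and from -0.07 to -0.03 with each pool left out. Slopes near 0 changed sign: Pcna ran from -0.0626 to 0.0059 with each pool left out, being above 0 without ZT14, and was 0.0096 with the basal epidermis covariate and 0.0068 without ZT14 and ZT38, and E2f1 was 0.00055 with the basal epidermis covariate. The cause was not tested. Fits without ZT14 and ZT38 together and with basal epidermis were chosen after seeing the data. Orc1, Cdc6 and Gins1 were too dim for the 50th percentile filter. Second minus first day with time of day as a block gave a median of -0.06, with 36 of 39 below 0 and 7 under 0.05 unadjusted. Over all genes in that fit, 55.9% were below 0 and 4.72% were under 0.05 unadjusted. Pools were paired by time of day only. Pairing by animal was not possible because the labels give no animals or replicate numbers shared between pools.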
